A study of Homo sapiens with 6 samples.

Results

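The genes of the ligand-gated ion channel subunits, the classic membrane targets of volatile anaesthetics, were taken from an RNA-seq experiment on U251, an established human glioma cell line. Members were the protein-coding rows of the count table whose Ensembl identifier carried a symbol for a GABA-A, glycine, AMPA, kainate, NMDA, delta-type glutamate, nicotinic acetylcholine or 5-HT3 receptor subunit. The symbol pattern matched 67 of the 61496 rows. Of these, 3 were antisense genes, and the other 64 were the members. They comprised 19 GABA-A, 5 glycine, 16 nicotinic, 5 5-HT3, 4 AMPA, 5 kainate, 7 NMDA and 2 delta subunit genes, so that 63 members encode channel subunits. The remaining member, GRID2IP, encodes delphilin, a postsynaptic scaffold protein, and it was kept because its symbol fits the same pattern. The control group held 3 libraries of untreated U251 cells, and the Sev group held 3 libraries of U251 cells kept under sevoflurane (Sev) gas for 2 h. The labels list concentrations of 1.7%, 3.4% and 5.1% without assigning one to each library, and a legend for the same comparison names 5.1%. Differences in dose and differences between replicates therefore cannot be told apart if the 3 Sev libraries did not share that concentration. All samples came from a single cell line, and the labels do not say that the 3 libraries of a group were separate cultures, so the p-values measure only the spread between these libraries.

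Ligand-gated ion channels open when a transmitter binds to their outer face. GABA-A and glycine receptors are chloride channels and, with the nicotinic and 5-HT3 receptors, belong to the Cys-loop family, whose members are pentamers. AMPA, kainate and NMDA receptors are glutamate-gated cation channels built as tetramers, and NMDA receptors need the GRIN1 subunit together with GRIN2 or GRIN3 subunits. Volatile anaesthetics are known to enhance GABA-A and glycine receptor currents and to inhibit several nicotinic and glutamate receptors. Sev is a halogenated ether used as an inhaled anaesthetic.

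Library totals were between 38624292 and 46318311 counts. All 10 glioma and astroglial markers, such as VIM and NES, were detected in every library, and their summed FPKM (fragments scaled by gene length and by library size) was 1400 to 1610 in control and 1420 to 1520 in Sev libraries. VIM supplied most of this sum, and among the single markers CD44, EGFR and TNC rose while S100B and SOX2 fell. Of the 10 neuronal markers, 5 were detected in every library and STMN2 and ELAVL4 had no count in any, with a summed FPKM of 7.07 to 8.22 in control and 6.65 to 7.62 in Sev libraries. MAP2 and SYT1 supplied most of that sum, MAP2 was not called (log2 fold change -0.21, adjusted p = 0.103), and SYT1 rose (0.55, adjusted p = 0.00521). The 7 oligodendrocyte markers summed to 1.52 to 1.72 in control and 0.793 to 0.933 in Sev libraries, where SOX10, OLIG1 and OLIG2 fell and MBP rose. The 6 microglia and leukocyte markers, of which AIF1 had no count, summed to 0.838 to 1.11 and 1.62 to 1.85, and the 4 endothelial markers to 1.01 to 1.27 and 1.15 to 1.68. CSF1R rose (0.72, adjusted p = 0.0201), as did ITGAM (5.59, adjusted p = 0.00117), which had 2, 3 and 0 counts in control and 69, 33 and 130 in Sev libraries. P2RY12 was not called. Among endothelial markers PECAM1 (0.92, adjusted p = 0.0409) and CLDN5 (1.14, adjusted p = 0.0191) rose, and VWF and CDH5 were not called. The part of the oligodendrocyte, microglia and endothelial marker shifts in the subunit results was not tested. In bulk samples fewer cells that express a gene and less RNA per cell cannot be told apart.

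Before any test, each subunit gene was called detected in a group when it had at least 10 counts in each of its 3 libraries. By this rule 36 members were detected in control cells and 35 in Sev-treated cells, 33 of them in both. GABRA2, GABRG3 and GRID2IP were detected only in control libraries, and CHRNA9 and GLRA4 only in Sev libraries. A further 18 members had traces of counts without being detected in either group, and 8 had no count in any library. Those without counts included the GABA-A alpha subunit genes GABRA4, GABRA5 and GABRA6, the gamma subunit gene GABRG1, and HTR3C and CHRNB3. A count of 0 over a group still allows up to 3 counts at this depth.

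The families differed in how fully they were detected. In control libraries 5 of 5 kainate, 6 of 7 NMDA, 3 of 4 AMPA, 3 of 5 glycine, 10 of 16 nicotinic, 7 of 19 GABA-A and 0 of 5 5-HT3 genes were detected. In Sev libraries the numbers were 5 kainate, 6 NMDA, 3 AMPA, 4 glycine, 11 nicotinic, 5 GABA-A and 0 5-HT3 genes. Per length, GRIK2, a kainate receptor subunit, stood highest in control cells at 9.60 ± 1.43 FPKM (SD, n = 3), next to GABRE, the GABA-A epsilon subunit, at 8.88 ± 0.713, and these neighbours did not differ beyond their spread. GABRA3 followed at 4.25 ± 0.225, GLRB at 3.73 ± 0.364, CHRNA5 at 3.10 ± 0.616, GABRQ at 3.07 ± 0.152 and GRIK3 at 2.75 ± 0.619 FPKM. From GABRA3 to GRIK3 the ranges of neighbours in this order overlapped. All NMDA and AMPA subunit genes had mean control levels below 1 FPKM.

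**Figure D1:**
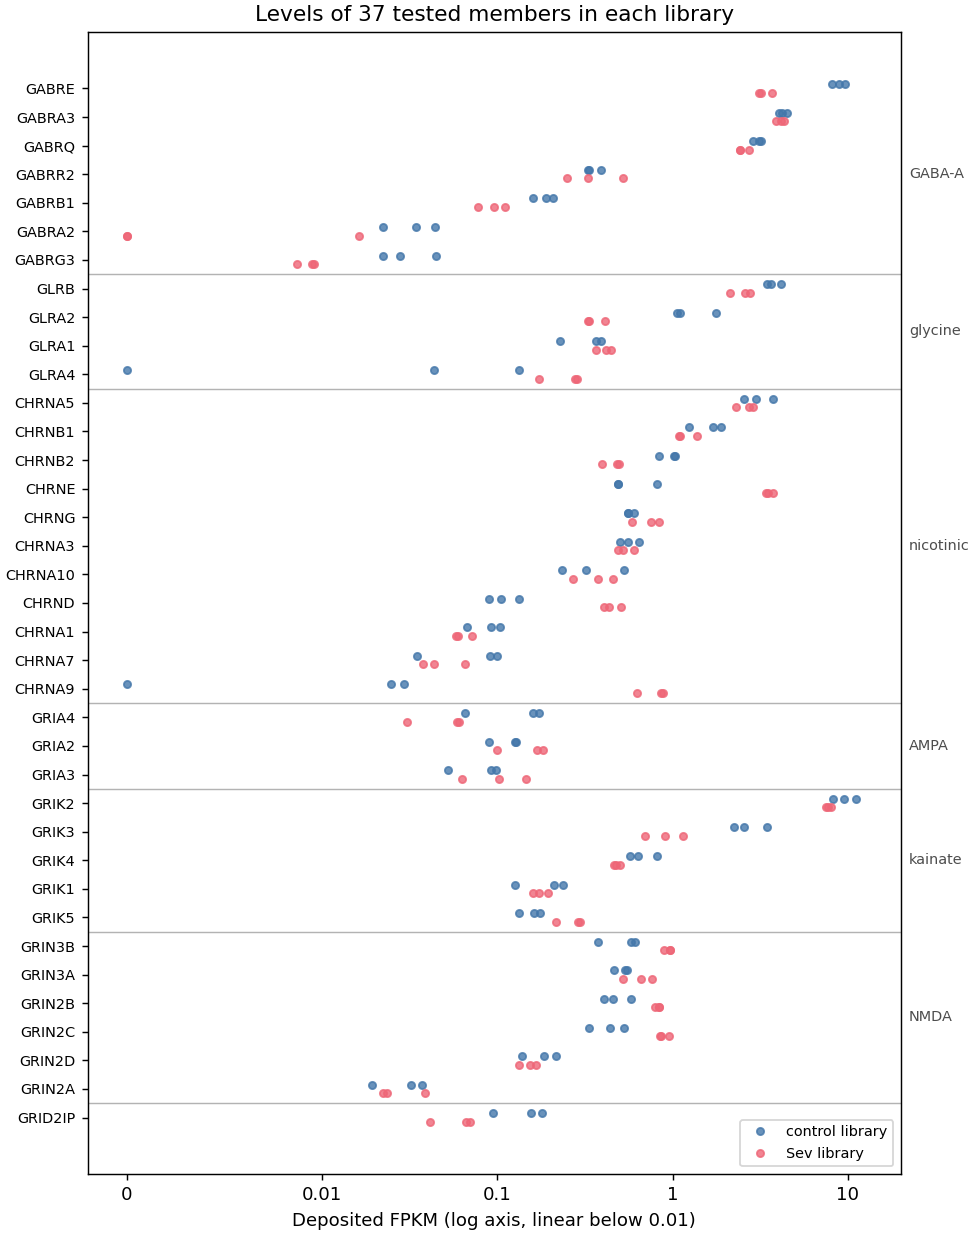
The plot shows the deposited FPKM (x axis, logarithmic above 0.01) of 37 members that passed the expression filter, with 1 point for each of the 3 control and 3 Sev libraries and the receptor family at the right. CHRNE, CHRND and CHRNA9 lie to the right in the Sev libraries, and GABRE, GLRA2, GRIK3 and CHRNB2 to the left, without overlap between the groups.

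An expression filter over the whole table, which uses both groups, left 38 of the 64 members for testing with edgeR. Of these 38, 5 (GABRA2, GABRG3, GRID2IP, CHRNA9 and GLRA4) passed it only through the group in which they were detected. At an adjusted p-value under 0.05, 8 members rose and 8 fell after Sev, and 22 were not called. These are 21.1% of the tested members in each direction, beside 25.0% higher and 21.0% lower among all tested protein-coding genes and 22.1% higher and 21.5% lower among all tested features. With a log2 fold change beyond 1 and an unadjusted p-value under 0.05, 6 members (15.8%) were higher and 7 (18.4%) lower. The background at that threshold was 9.07% and 7.62% of protein-coding genes, and 11.4% and 12% of all features. The normalized counts of the control and Sev libraries did not overlap for 23 tested members, or 60.5%, against 57.8% of the tested protein-coding genes. The median log2 fold change of the tested members was -0.04, beside 0.04 for protein-coding genes and -0.01 for all features. The shares of members called at the adjusted p-value were thus close to the background. Scaling by library size alone moved the median of all features to -0.15 and gave 7 higher and 10 lower members. The count of 8 lower members fell to 5 without control replicate 1 or 3 and to 4 without Sev replicate 1 or 3.

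The calls by family stand beside the same background of 25.0% higher and 21.0% lower among protein-coding genes. Of the tested genes, 4 of 6 NMDA, 3 of 11 nicotinic and 1 of 5 kainate members rose. The members that fell included 2 of 7 GABA-A, 1 of 4 glycine, 1 of 11 nicotinic, 1 of 3 AMPA and 1 of 5 kainate genes, and GRID2IP. No GABA-A, glycine or AMPA member rose and no NMDA member fell at this limit in the filtered edgeR fit of all 6 libraries. Without control replicate 3, edgeR called the glycine member GLRA4 higher (adjusted p = 0.0187). The difference between families was not tested.

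**Figure D2:**
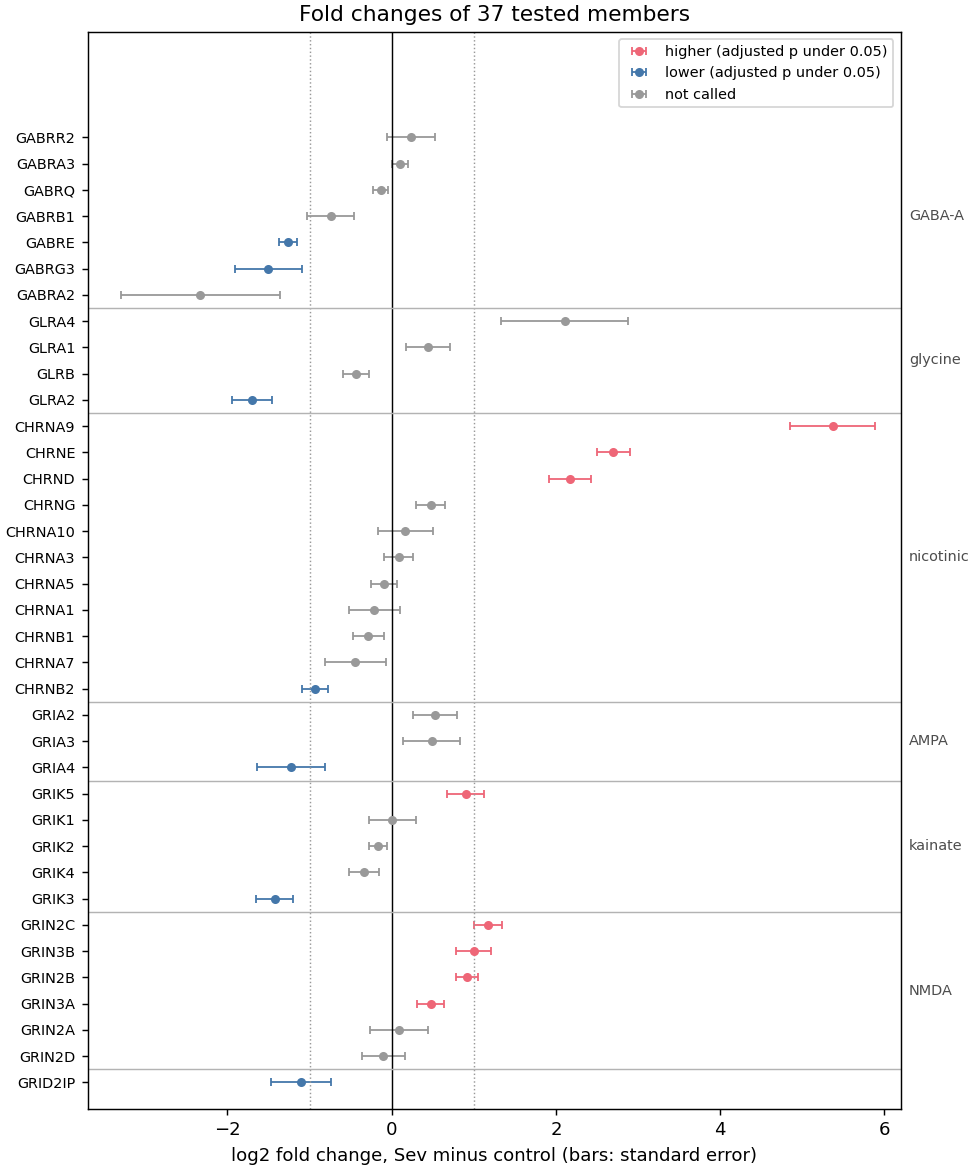
The plot gives the log2 fold change (x axis, Sev minus control, bars are standard errors) of 37 tested members by family, with dotted lines at 1 and -1. The 8 members called higher are in red, the 7 called lower in blue and the 22 not called in grey.

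Among nicotinic acetylcholine receptor subunits, CHRNE, CHRND and CHRNA9 rose by log2 fold changes over 2. CHRNE and CHRND encode the epsilon and delta subunits of the muscle-type receptor, and CHRNA9 encodes a subunit best known from cochlear hair cells. To show what lies upstream of these genes and which motif the epsilon and delta genes have in common, the 250 bases before the RefSeq transcript start are printed below (GRCh38.p14, 5′ to 3′ on the gene's strand), with GABRE, the most abundant member that fell, for contrast. Capitals mark an N-box (CCGGAA on either strand), the element known from synaptic acetylcholine receptor genes, and an E-box (CAGCTG), a site of myogenic factors.
CHRNE, chr17:4903099-4903348, minus strand: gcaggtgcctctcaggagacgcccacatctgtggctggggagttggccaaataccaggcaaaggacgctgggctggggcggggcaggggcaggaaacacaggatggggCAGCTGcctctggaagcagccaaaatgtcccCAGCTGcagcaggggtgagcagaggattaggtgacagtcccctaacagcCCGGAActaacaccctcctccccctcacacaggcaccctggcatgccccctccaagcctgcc
CHRND, chr2:232525910-232526159, plus strand: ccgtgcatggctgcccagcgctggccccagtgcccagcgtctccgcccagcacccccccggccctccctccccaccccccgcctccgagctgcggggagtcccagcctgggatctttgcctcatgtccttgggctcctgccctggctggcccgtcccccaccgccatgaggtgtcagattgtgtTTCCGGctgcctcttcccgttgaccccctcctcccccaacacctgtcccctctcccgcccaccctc
CHRNA9, chr4:40335083-40335332, plus strand: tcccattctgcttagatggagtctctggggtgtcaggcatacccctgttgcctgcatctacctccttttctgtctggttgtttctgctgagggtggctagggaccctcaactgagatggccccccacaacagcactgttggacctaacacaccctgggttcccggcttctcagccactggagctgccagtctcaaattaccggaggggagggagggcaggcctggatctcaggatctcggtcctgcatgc
GABRE, chrX:151974677-151974926, minus strand: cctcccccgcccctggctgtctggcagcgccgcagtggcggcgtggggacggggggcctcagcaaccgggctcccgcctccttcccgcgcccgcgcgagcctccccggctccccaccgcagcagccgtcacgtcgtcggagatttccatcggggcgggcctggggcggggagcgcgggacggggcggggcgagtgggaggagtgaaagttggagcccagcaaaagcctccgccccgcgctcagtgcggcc

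The N-box began 62 bases before the CHRNE start and 66 bases before the CHRND start, in CHRND on the opposite strand. CHRNE also had an E-box at 142 and at 111 bases, and the CHRNA9 and GABRE windows had no match to any motif searched. RefSeq windows were at hand for 44 of the 64 members and not for the other 20. These 44 had 62 windows, since some genes have several starts. An N-box lay in 5 of the 62 windows (1 each of CHRNA3, CHRND, CHRNE, GRIA1 and HTR3C), or 8.06%, and in 14.5% of all 35116 promoter windows of the same length. The E-box was in 12 of the 62, or 19.4%, from 11 members, and in 14.0% of all windows. The cAMP response element TGACGTCA, present in 1.65% of all windows, and the ATF4-type core TGATGNAA, present in 3.14%, had no match in the 44. The left part of the RE1 silencer, TCAGCACC, matched in GRIA2 and in 1.32% of all windows. Both strands were searched, and a match is a description of the letters, not a bound site.

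CHRNE had 141, 83 and 102 counts in the control libraries and 592, 628 and 654 in the Sev libraries. Every Sev library was above every control library. Its log2 fold change was 2.70 ± 0.205 (SE; adjusted p = 0.000126), and per length it went from 0.597 ± 0.185 to 3.56 ± 0.149 FPKM (SD, n = 3). The gene lies at chr17:4897774-4934438 (GRCh38, GENCODE 29, minus strand), and that model reaches well beyond the RefSeq start. Its exons share 1172 bases with C17orf107, 97 with GP1BA and 288 with MINK1, all on the opposite strand. C17orf107 (log2 fold change 2.14, adjusted p = 0.0219) and GP1BA (1.18, adjusted p = 0.00287) also rose, whereas MINK1 had 0.12 (adjusted p = 0.283). The libraries were strand-specific, but whether counting used the strand is not given in the sources used here, so reads of CHRNE and of these genes cannot be told apart.

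CHRND (chr2:232525993-232536667, plus strand) gave 16, 14 and 24 counts in control and 63, 82 and 69 in Sev libraries. The groups did not overlap, and the log2 fold change was 2.17 ± 0.255 (adjusted p = 0.000583). PRSS56, which ends 277 bases upstream on the same strand, had 2, 0 and 0 against 18, 20 and 27 counts, and it passed the filter only through the Sev libraries. Its part in the CHRND counts was not tested. CHRNG, the fetal gamma subunit gene downstream of CHRND, had 129, 116 and 140 counts in control and 179, 130 and 163 in Sev libraries (log2 fold change 0.48 ± 0.174, adjusted p = 0.0577). It was called only without Sev replicate 2 (adjusted p = 0.0299). In adult muscle the epsilon subunit takes the place of gamma, and the ratio of CHRNE to CHRNG in FPKM was 1.34, 0.874 and 0.877 in control and 4.09, 5.99 and 4.96 in Sev libraries. The lengths behind the FPKM of CHRNG and CHRNE were 1.67 and 1.23 times those of GENCODE 29 relative to other genes, which bears on the level of the ratio. The other muscle-type subunits, CHRNA1 (log2 fold change -0.21 ± 0.313, adjusted p = 0.614) and CHRNB1 (-0.28 ± 0.192, adjusted p = 0.264), were not called. CHRNB1 had 399, 257 and 421 counts in control and 234, 302 and 236 in Sev libraries, and its groups overlapped. It shares 630 exonic bases with a noncoding transcript on its own strand that was not called (adjusted p = 0.196). That transcript had 11, 26 and 12 counts in control and 15, 204 and 0 in Sev libraries. Sev replicate 2, which held most of its counts, was also the Sev library with the most CHRNB1 counts. Reads of these genes cannot be told apart there, and the part of this overlap in the CHRNB1 result was not tested.

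CHRNA9 (chr4:40335329-40355217, plus strand) had 4, 0 and 6 counts in the control libraries, below detection, and 98, 138 and 140 in the Sev libraries. Since CHRNA9 passed the expression filter only through the Sev libraries, it had to differ, and its log2 fold change was 5.37 ± 0.519 (adjusted p = 0.000283). With so few control counts the size of this fold is loosely set, and leaving out single libraries moved it between 4.85 and 5.98. CHRNA10, which forms a receptor with CHRNA9, was not called (0.17 ± 0.334, adjusted p = 0.712). CHRNA10 had 38 to 71 counts in a library and shares 133 exonic bases on its own strand with NUP98, which had 4912 to 6188 counts and rose (0.25 ± 0.0809, adjusted p = 0.0382), so that reads of these genes cannot be told apart there. CHRNA9 itself has no exon in common with another gene, and the nearest gene upstream on its strand, LINC02265, was not called (0.57 ± 0.438, adjusted p = 0.327).

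CHRNB2, the beta 2 subunit of the most common neuronal nicotinic receptor, fell from 291, 236 and 351 to 139, 119 and 145 counts. No Sev library reached the lowest control library, and the log2 fold change was -0.93 ± 0.155 (adjusted p = 0.00248). Its usual partner CHRNA4 had no count in the control libraries and 45, 11 and 7 in the Sev libraries. CHRNA4 did not pass the expression filter, so it has no test. Against a floor of 3 counts over the control group it was at least 23.9-fold higher, and without Sev replicate 1, which held most of the counts, at least 10.1-fold higher. CHRNA5, the most abundant nicotinic subunit gene per length in control cells, had 665, 439 and 624 counts in control and 485, 421 and 516 in Sev libraries, with overlapping groups (log2 fold change -0.10 ± 0.155, adjusted p = 0.644). CHRNA3 (0.08 ± 0.176, adjusted p = 0.731) and CHRNA7 (-0.45 ± 0.372, adjusted p = 0.364) were not called either. Reads of CHRNA7 are uncertain because CHRFAM7A, a fusion gene that contains a copy of part of it, had 80, 72 and 86 counts in control and 51, 48 and 67 in Sev libraries. CHRNA3 and CHRNA5 overlap tail to tail on opposite strands by 198 exonic bases, and CHRNA5 shares 832 exonic bases with an antisense gene that rose (0.61 ± 0.207, adjusted p = 0.0442). CHRNA2, CHRNA6 and CHRNB4 had only traces.

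**Figure D3:**
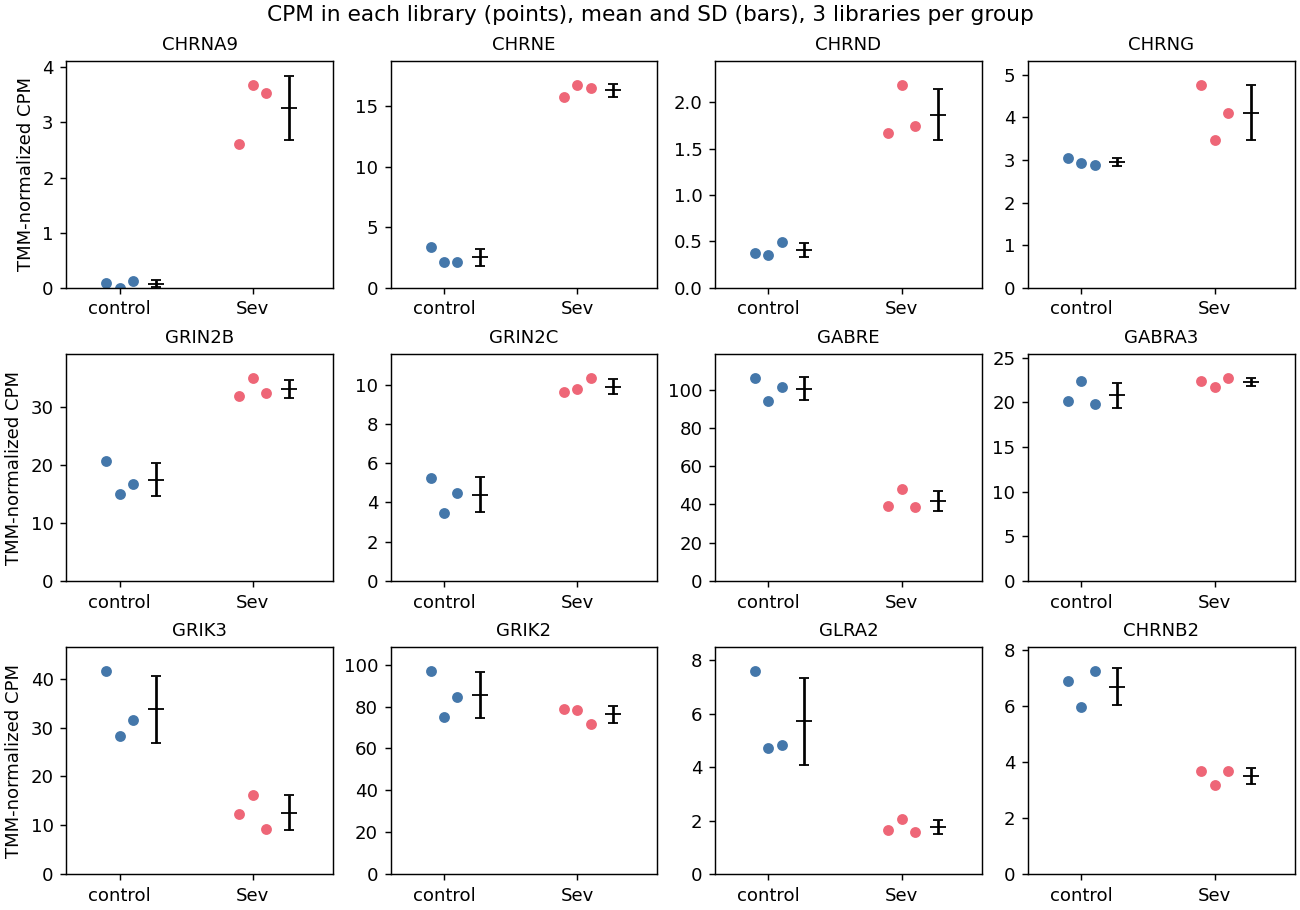
Each panel shows the TMM-normalized CPM, counts scaled by library size (y axis from 0), of a member in the 3 control and 3 Sev libraries (points), with the mean and SD beside them. CHRNA9, CHRNE, CHRND, GRIN2B and GRIN2C are higher and GABRE, GRIK3, GLRA2 and CHRNB2 lower in all 3 Sev libraries, while GABRA3 and GRIK2 overlap between the groups.

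NMDA receptor subunit genes moved in a single direction where they were called. GRIN2B and GRIN2C encode glutamate-binding GluN2 subunits, and GRIN3A and GRIN3B encode glycine-binding GluN3 subunits. GRIN2B had 876, 598 and 812 counts in control and 1204, 1314 and 1288 in Sev libraries. The lowest Sev library was above the highest control library, and the log2 fold change was 0.92 ± 0.132 (adjusted p = 0.00132), though unfiltered limma did not call it (0.0581). GRIN2C rose from 221, 137 and 218 to 362, 368 and 409 counts, again without overlap (1.17 ± 0.175, adjusted p = 0.00156). For GRIN3B the counts were 92, 59 and 116 in control and 144, 162 and 159 in Sev libraries. Its log2 fold change was 1.0 ± 0.212 (adjusted p = 0.00699), and 85 of its exonic bases are shared with TMEM259 on the opposite strand, which was not called (0.22 ± 0.0839, adjusted p = 0.0663).

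GRIN3A had 218, 207 and 216 counts in control and 265, 216 and 310 in Sev libraries. The raw counts overlapped slightly and the normalized values did not, and the log2 fold change was 0.48 ± 0.166 (adjusted p = 0.0492). The call was lost without control replicate 1 (adjusted p = 0.093), 2 (0.0827) or 3 (0.157) and without Sev replicate 1 (0.126) or 3 (0.131), and it was also lost when libraries were scaled by size alone (0.168), by the DESeq2 Wald test (0.0548), with no expression filter (0.0816), with at least 10 counts in every library (0.0526), among protein-coding genes only (0.0709) and in all 3 limma fits (0.299 to 0.421). GRIN2A (0.09 ± 0.353, adjusted p = 0.862) and GRIN2D (-0.10 ± 0.257, adjusted p = 0.777) were not called. GRIN1, the subunit that every NMDA receptor needs, had 3, 5 and 0 counts in control and 24, 8 and 27 in Sev libraries and did not pass the filter. Its level of 0.00809 ± 0.00736 FPKM in control and 0.0661 ± 0.0345 in Sev libraries was far below that of GRIN2B, at 0.480 ± 0.0900 and 0.822 ± 0.0245 FPKM.

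The kainate receptor genes were all tested, and the 2 calls went in opposite directions. GRIK3, the GluK3 subunit gene (chr1:36795527-37034129, minus strand), had 1757, 1122 and 1534 counts in control and 463, 612 and 366 in Sev libraries. The groups lay far apart, with a log2 fold change of -1.42 ± 0.226 (adjusted p = 0.00203). GRIK5, which encodes the high-affinity subunit GluK5, had 42, 43 and 39 counts in control and 76, 57 and 73 in Sev libraries (0.90 ± 0.228, adjusted p = 0.0147). This call was lost without control replicate 3 (adjusted p = 0.06) or Sev replicate 1 (0.0555) and under unfiltered limma (0.0923). GRIK2, the kainate gene with the highest FPKM, had 4093, 2967 and 4107 counts in control and 2968, 2946 and 2832 in Sev libraries, and the groups overlapped after normalization (-0.16 ± 0.108, adjusted p = 0.25). GRIK4 had 235, 294 and 249 counts in control and 187, 184 and 177 in Sev libraries (-0.34 ± 0.179, adjusted p = 0.164). GRIK1 was not called (0.01 ± 0.283, adjusted p = 0.986). It shares 45 exonic bases with BACH1 on the opposite strand, which rose (1.10 ± 0.108, adjusted p = 0.000304).

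AMPA receptor genes were expressed at low levels. GRIA4 had 86, 33 and 95 counts in control and 16, 33 and 30 in Sev libraries (-1.23 ± 0.411, adjusted p = 0.0427). Control replicate 2 lay within the range of the Sev libraries. The GRIA4 call was lost without control replicate 1 (adjusted p = 0.131) or 3 (0.127) and without Sev replicate 1 (0.121), 2 (0.0505) or 3 (0.078), and also with no expression filter (0.0648) and under unfiltered limma (0.123). GRIA2 had 42, 56 and 67 counts in control and 78, 48 and 83 in Sev libraries (0.52 ± 0.269, adjusted p = 0.152). GRIA3 had 32, 18 and 36 counts in control and 34, 23 and 49 in Sev libraries (0.49 ± 0.348, adjusted p = 0.288). The raw counts of both overlapped between the groups, and neither was called. GRIA1 had 0 to 11 counts in each library.

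GRID2IP, the scaffold gene, had 37, 19 and 38 counts in control and 14, 9 and 15 in Sev libraries (-1.11 ± 0.361, adjusted p = 0.0391). This call was lost without control replicate 1 (adjusted p = 0.121) or 3 (0.114) and without Sev replicate 1 (0.0781), 2 (0.101) or 3 (0.063), and also by the DESeq2 Wald test (0.121), with no expression filter (0.058) and under unfiltered limma (0.071). GRID1, a delta receptor gene, had at most 3 counts in a library.

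GABRE led the GABA-A receptor genes that fell. The gene, at chrX:151953124-151974680 on the minus strand, encodes the epsilon subunit, which is known for making GABA-A receptors less sensitive to several anaesthetics. It had 4486, 3725 and 4927 counts in control and 1468, 1803 and 1537 in Sev libraries. No Sev library had more than the lowest control library, and the log2 fold change was -1.26 ± 0.109 (adjusted p = 0.000183). GABRA3 and GABRQ, its neighbours on the X chromosome, encode the alpha 3 and theta subunits. GABRA3 had 852, 886 and 963 counts in control and 843, 818 and 899 in Sev libraries (0.10 ± 0.0974, adjusted p = 0.433). GABRQ had 1001, 889 and 1160 counts in control and 767, 790 and 884 in Sev libraries, and was not called (-0.14 ± 0.0939, adjusted p = 0.273). The ratio of GABRE to GABRA3 in FPKM was 2.27, 1.81 and 2.20 in control and 0.751, 0.950 and 0.737 in Sev libraries, so that GABRE stood above GABRA3 in every control library and below it in every Sev library. The microRNA genes MIR224 and MIR452, which lie within GABRE, had 1 count in each library.

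The other tested GABA-A genes were low. GABRG3, a gamma subunit gene, fell from 19, 28 and 17 to 6, 7 and 7 counts (-1.50 ± 0.408, adjusted p = 0.0196). GABRG3 entered the test through the control libraries alone, the group in which it was detected. The GABRG3 call was lost without control replicate 2 (adjusted p = 0.0753) or Sev replicate 1 (0.0678) or 3 (0.0526), by the DESeq2 Wald test (0.0757) and under unfiltered limma (0.177). GABRA2, the alpha 2 subunit gene, had 26, 21 and 17 counts in control and 0, 11 and 0 in Sev libraries. It passed the fold threshold (-2.33 ± 0.971) without being called (adjusted p = 0.0864), and without Sev replicate 2, the only Sev library with counts, the adjusted p was 0.00425. The size of the GABRA2 fold is unset, since without that library the Sev group is at 0, while without Sev replicate 3 the log2 fold change was -1.74. GABRB1, a beta subunit gene, was not called, with 31, 24 and 33 counts in control and 17, 13 and 16 in Sev libraries (-0.75 ± 0.283, adjusted p = 0.0649), and it passed with library size scaling (adjusted p = 0.0406), with at least 10 counts in every library (0.0301) and under unfiltered limma (0.047). GABRR2, a rho subunit gene, was not called (0.24 ± 0.291, adjusted p = 0.542). GABRB2, GABRD, GABRP, GABRR1 and GABRR3 had traces of at most 21 counts in a library.

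Glycine receptor genes showed a fall of the alpha 2 subunit gene GLRA2, the form known from the developing nervous system. Its counts were 321, 187 and 235 in control and 62, 77 and 62 in Sev libraries. The groups did not overlap (-1.70 ± 0.242, adjusted p = 0.00128). GLRB, the beta subunit that ties the receptor to its scaffold gephyrin, had 568, 668 and 704 counts in control and 459, 443 and 363 in Sev libraries. Its log2 fold change of -0.43 ± 0.154 just missed the limit (adjusted p = 0.0516). It passed when libraries were scaled by size alone (adjusted p = 0.013), by the DESeq2 Wald test (0.0487), with at least 10 counts in every library (0.046), among protein-coding genes only (0.037) and in all 3 limma fits (0.0131 to 0.0252). GLRA1 had 28, 43 and 55 counts in control and 53, 46 and 51 in Sev libraries (0.44 ± 0.265, adjusted p = 0.213), and its groups overlapped in raw but not in normalized counts. It shares 441 exonic bases with a processed pseudogene on the opposite strand that was not called (1.81 ± 0.777, adjusted p = 0.0946). That pseudogene had 0, 11 and 7 counts in control and 13, 15 and 29 in Sev libraries. GLRA4 had 6, 0 and 22 counts in control and 39, 40 and 24 in Sev libraries and passed the fold threshold only (2.11 ± 0.777, adjusted p = 0.0591), while without control replicate 3 the log2 fold change was 3.57 (adjusted p = 0.0187). The DESeq2 Wald test (adjusted p = 0.0411) and unfiltered limma (0.0399) also called it. GLRA3 had traces. No 5-HT3 receptor gene was tested, and HTR3E had the most counts of these with 9, 0 and 6 in control and 6, 7 and 5 in Sev libraries.

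The make-up of the families by summed FPKM shifted with these members. The GABA-A sum was 16.9 ± 0.808 in control and 10.6 ± 0.285 in Sev libraries (SD, n = 3), and the share of GABRE in it went from 52.6 ± 1.92% to 31.6 ± 2.47%. The kainate sum was 13.4 ± 2.02 and 9.58 ± 0.405 FPKM, with a GRIK3 share of 20.4 ± 1.47% and 9.55 ± 2.15%. For the glycine receptor genes the sum was 5.43 ± 0.162 and 3.51 ± 0.399 FPKM. The NMDA sum went the other way, from 2.17 ± 0.259 to 3.55 ± 0.217 FPKM, as did the nicotinic sum, from 8.09 ± 1.40 to 10.9 ± 0.406 FPKM. CHRNE made up 7.30 ± 1.20% of the nicotinic sum in control and 32.7 ± 1.06% in Sev libraries, and CHRNA5 38.2 ± 1.14% and 24.1 ± 1.92%. Without CHRNE the nicotinic sum was 7.49 ± 1.24 and 7.33 ± 0.324 FPKM, and the groups overlapped (exact permutation p = 0.9). In each of the other sums and shares given so far the groups did not overlap, and the two-sided exact permutation test gave p = 0.1, the smallest that 3 libraries against 3 allow. For the AMPA sum, 0.348 ± 0.0786 and 0.309 ± 0.0826 FPKM, the groups overlapped (exact permutation p = 0.6). FPKM are scaled by library size and not by TMM.

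**Figure D4:**
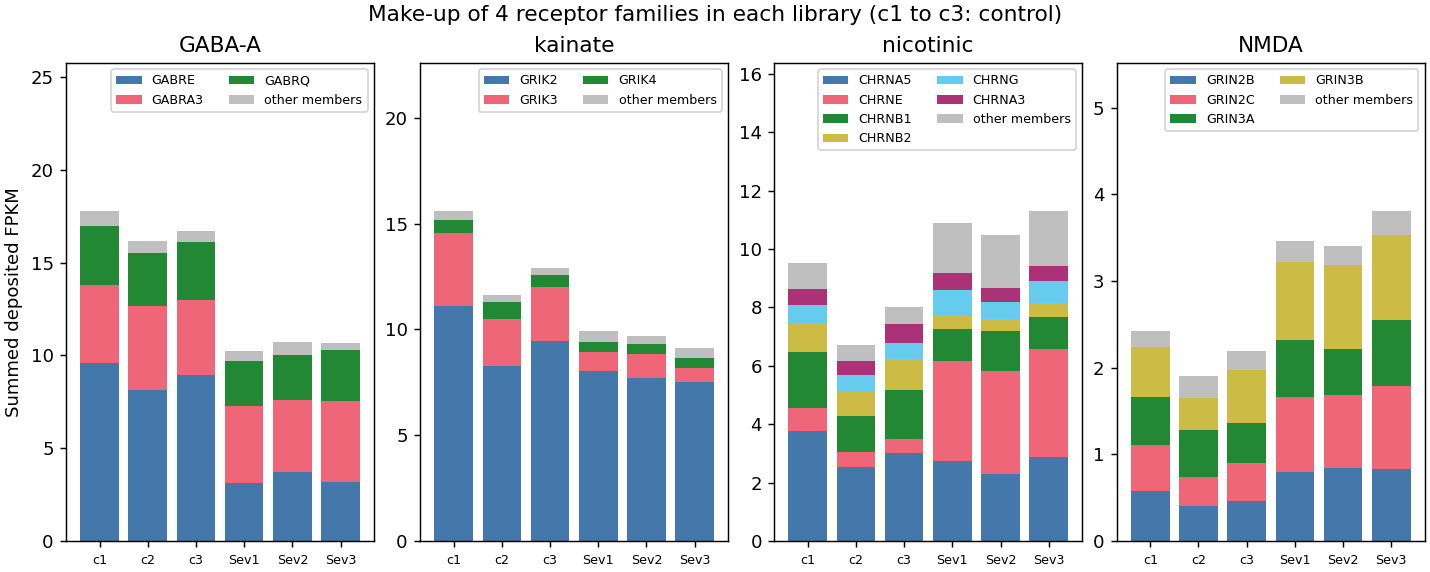
Stacked bars give the summed deposited FPKM (y axis) of the GABA-A, kainate, nicotinic and NMDA families in each of the 3 control and 3 Sev libraries, split by leading members. The GABRE and GRIK3 segments shrink and the CHRNE segment grows in all 3 Sev libraries, and the NMDA bars are taller.

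Genes that act with the receptors were counted from lists in the same fit, and their counts stand beside the 25.0% of tested protein-coding genes that rose and the 21.0% that fell, with a median of 0.04. The lists include genes that passed the filter through 1 group only and so had to differ, among them IQSEC3, NPTX1, CBLN1, ADARB2 (through the Sev libraries) and CHAT (through the control libraries). Of 16 nicotinic and 5-HT3 receptor assembly genes, 12 were tested, 3 rose and 1 fell, with a median log2 fold change of -0.06. RAPSN, which encodes rapsyn, the protein that clusters muscle acetylcholine receptors, had 81, 82 and 90 counts in control and 136, 136 and 164 in Sev libraries (0.96 ± 0.166, adjusted p = 0.00292). DOK7, an activator of the kinase MuSK at the neuromuscular junction, had 85, 46 and 98 against 123, 166 and 283 counts (1.51 ± 0.338, adjusted p = 0.0089). MUSK itself had 0, 7 and 0 counts in control and 0, 2 and 2 in Sev libraries and was not tested. From the same list, AGRN (-0.28 ± 0.104, adjusted p = 0.058) and LRP4 (-0.29 ± 0.118, adjusted p = 0.0827) were not called. LYPD6, a Ly6-type modulator of nicotinic receptors, fell from 1395, 1142 and 1493 to 504, 633 and 602 counts (-1.03 ± 0.118, adjusted p = 0.000546). Among 19 genes for anchoring and assembly of GABA-A and glycine receptors, all tested, 3 rose and 4 fell, with a median of 0.04. SHISA7, an auxiliary subunit of GABA-A receptors, went from 35, 21 and 47 to 167, 177 and 205 counts (2.61 ± 0.244, adjusted p = 0.000247). TRAK2, a trafficking adaptor, fell by 0.56 on the log2 scale (SE 0.0756, adjusted p = 0.00105). IQSEC3, a gephyrin partner at inhibitory synapses, had 2 counts over the control group and 63 over the Sev group, a ratio of 35.8 with an exact 95% counting interval of 9.5 to 302.

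For the glutamate receptors, 25 of 41 anchoring and auxiliary genes were tested, 4 rose and 6 fell, with a median of -0.06. At a log2 fold change beyond 1 and an unadjusted p-value under 0.05, 5 were higher and 0 lower. The background at that threshold was 9.07% higher and 7.62% lower among tested protein-coding genes. NPTX1 and CBLN1, which encode secreted synapse-organizing proteins, are 2 of these 5, named after their values were seen, and both passed the filter only through the Sev libraries. NPTX1 had 10, 9 and 4 counts in control and 21, 49 and 31 in Sev libraries, and CBLN1 3, 3 and 5 against 15, 17 and 11. The others, NETO2, SHANK2 and DLGAP1, had few counts and were not called (edgeR adjusted p = 0.0814, 0.0653 and 0.0812). The smallest p-values belonged to genes that fell, namely ABHD6 (-0.92 ± 0.153, adjusted p = 0.00245), HOMER2 (-0.83 ± 0.138, adjusted p = 0.00246) and CPT1C (-0.80 ± 0.136, adjusted p = 0.0028). ABHD6 and CPT1C proteins are known to regulate AMPA receptor assembly and traffic, and HOMER2 links group I metabotropic receptors to their partners. Of 17 metabotropic receptors for the same transmitters, 11 were tested, with 3 higher and 3 lower and a median of 0.08. GABBR1, a subunit of the GABA-B receptor, fell from 2935, 2031 and 2920 to 873, 811 and 1094 counts (-1.32 ± 0.142, adjusted p = 0.000421). GRM2, a metabotropic glutamate receptor, rose from 86, 35 and 91 to 366, 276 and 380 counts (2.47 ± 0.303, adjusted p = 0.000698).

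Of 37 transmitter synthesis, breakdown and transport genes 25 were tested, with 9 higher and 4 lower and a median of 0.31, against the same background of 25.0% and 21.0%. SLC1A2, the main astrocytic glutamate transporter, went from 49, 88 and 101 to 385, 278 and 441 counts (2.39 ± 0.278, adjusted p = 0.000559). GAD1, which makes GABA from glutamate, fell from 795, 616 and 761 to 250, 281 and 326 counts (-1.16 ± 0.14, adjusted p = 0.00066). CHAT, the enzyme of acetylcholine synthesis, had 149 counts over the control group and 1 over the Sev group, a ratio of 131 with an exact 95% counting interval of 23.2 to 5220. The list of cation-chloride cotransporters and their kinases held 15 genes, and some of these set the chloride gradient that GABA-A and glycine receptors use. Of the 15, 4 rose and 4 fell with a median of 0.05. OXSR1 rose (0.68 ± 0.113, adjusted p = 0.0025), and SLC12A9 (-0.49 ± 0.0902, adjusted p = 0.00375) and WNK3 (-0.94 ± 0.196, adjusted p = 0.00666) fell. Of the 18 regulators of subunit transcription, editing and splicing, 7 rose and 2 fell with a median of 0.13, beside 25.0% and 21.0% of protein-coding genes. PTBP1, a splicing repressor, rose (0.75 ± 0.0775, adjusted p = 0.000359) and the transcription factor gene CREB1 fell (-0.91 ± 0.115, adjusted p = 0.000779). ADARB2, an editing enzyme homologue, had no control count against 62, 35 and 97 in Sev libraries, at least 73.5-fold higher against a floor of 3 counts over the group.

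The rule made no use of gene size, and the tested members differed in it. Members that rose had a median span of 28.3 kb from first to last base, those that fell 221 kb, and those not called 99.2 kb. Over all tested protein-coding genes the medians were 28.4, 40.6 and 31.7 kb. GRIN2B, with 544 kb, rose against this order, and CHRNB2 and GABRE, with 12.2 and 21.6 kb, fell against it. Across the 38 tested members the Spearman correlation of span with log2 fold change was -0.372, and across the 15189 protein-coding genes it was -0.0884. These values describe genes within the same 6 libraries, which are not independent replicates.

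**Figure D5:**
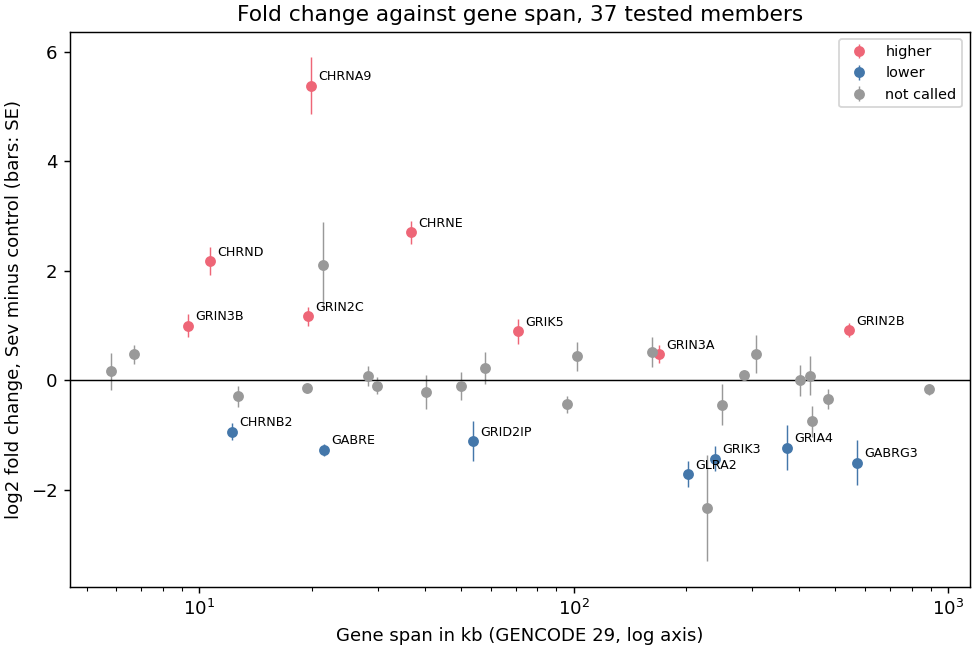
The plot sets the log2 fold change (y axis, bars are standard errors) of 37 tested members against gene span in kb (x axis, logarithmic). Most called members under 100 kb rose, most over 100 kb fell, and GRIN2B and GRIN3A are the members over 100 kb that rose.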

How the data were processed

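RNA-seq of 3 untreated control and 3 Sev-treated U251 libraries was analysed from the deposited tables. The authors deposited gene counts without normalization for each library, and FPKM values for the same features, whose relation to the counts was close to a rescaling by library total and gene length for well-counted genes and varied between libraries for genes with few counts. The submitters' processing notes name bcl2fastq 2.19, featureCounts and the build hg18; the aligner, the annotation and the strand setting are not given in the sources used here. Identifiers were joined to symbols for 60295 of 60564 Ensembl features (932 further features carry MSTRG names) and to positions on GRCh38 through GENCODE 29, not on hg18. Promoter sequences came from RefSeq (GRCh38.p14).

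Counts were filtered with filterByExpr, normalized by TMM and tested with the quasi-likelihood test of edgeR 4.0.16 in R 4.3.3 over all 27514 features, without a block. Standard errors are the absolute log2 fold change over the square root of F. Adjusted p-values are by Benjamini-Hochberg over all tested features, with a limit of 0.05. The second call rule was a log2 fold change beyond 1 with p under 0.05. FPKM were used for levels between genes and for the exact permutation tests, computed in Python 3.11.15 with scipy 1.17.1. Intervals and floors cover counting error only.

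Tested members are named, except that the results of a few members and 1 list gene are not reported here. Counts in each library are given for members called or past the fold threshold and for the 3 with the highest control FPKM in each family, and in each companion list the 3 called genes with the smallest p are named. Other tested members are given in brief, and genes next to a member were added where they bear on its counts. The members and lists were chosen with earlier results of these data known. No pair of libraries within a group agreed within sampling noise. The models were tested on simulated data.

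Alternatives were DESeq2 1.42.0 size factors and its Wald test, library size only, no filter, at least 10 counts in every library, protein-coding genes only, a block on the replicate number, leaving out each library, and limma 3.58.1 on log2(FPKM + 1) or log2(FPKM + 0.1) after a filter of 0.5 FPKM in 3 libraries, the former also unfiltered. Detection was also set at 3 or 20 counts or 0.1 FPKM. Counts without the 6 members whose exons overlap a tested protein-coding or antisense gene were added after the data were seen.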

Additional observations from a re-analysis of the deposited data

How the results depend on the processing

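No called member changed direction under any alternative run. DESeq2 size factors kept 16 of the 16 called members, library size only and the fit on protein-coding genes 15 each, DESeq2's Wald test and the fit without a filter 12 each, and leaving out a library 10 to 14. Limma kept 9 of the 10 it tested after the FPKM filter, with either pseudocount, and 9 of 16 without that filter. Among members not called, GLRB passed in 7 alternatives, GABRB1 in 3 and GLRA4 in 3, all in the direction first given. Higher members at the adjusted p numbered 8, and 5 under limma with either pseudocount, where the FPKM filter left 19 members to test. Lower members numbered 8, and 5 under limma with either pseudocount, 5 without an expression filter, and 4 to 7 without a single library, with 4 each without Sev replicate 1 or 3 and 5 each without control replicate 1 or 3. Past the fold threshold, 6 members were higher, and 3 were with at least 10 counts in every library, 1 under limma on log2(FPKM + 1) with or without the filter, and 2 on log2(FPKM + 0.1). On the lower side 7 passed, and 4 with at least 10 counts, 1 under limma on log2(FPKM + 1) with or without the filter, 3 on log2(FPKM + 0.1) and 4 to 7 without a single library, the lowest without control replicate 1 or 3. These limma fold changes are on the log2(value + pseudocount) scale, which understates the change of low genes. Without the 6 members whose exons overlap a tested protein-coding or antisense gene, an alternative chosen after seeing the data, 6 were higher and 8 lower at the adjusted p.

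The members whose fold change reversed were not called in any fit and lay near 0. CHRNA3 had -0.059 with library size only, -0.027 under limma on log2(FPKM + 1) with or without the filter and -0.064 on log2(FPKM + 0.1). GABRA3 had -0.039, -0.035 and -0.042 in the same fits. GRIK1 had -0.138 with library size only, -0.004 without a filter, -0.001 with at least 10 counts, -0.033 with protein-coding genes only and -0.018 under unfiltered limma. GRIN2A had -0.066 with library size only and -0.002 under unfiltered limma. Leaving out single libraries gave -0.066 to 0.507 for CHRNA10, -0.003 to 0.186 for CHRNA3, -0.214 to 0.038 for CHRNA5, -0.126 to 0.464 for GABRR2, -0.213 to 0.154 for GRIK1, -0.21 to 0.248 for GRIN2A and -0.274 to 0.059 for GRIN2D. The cause of these shifts was not tested.

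Groups share replicate numbers, and the deviations of same-numbered libraries correlated at -0.0072, 0.0035 and 0.027, so the numbers were not taken to pair the samples. With a replicate block 7 members were higher and 6 lower at the adjusted p, and 13 of the 16 calls were kept, GRIA4 and GRIN3A being among those lost. Not every library correlated best with its own number. Depth limits the members with few counts, such as GABRG3 and GABRA2. Other detection limits of 3 or 20 counts or 0.1 FPKM gave 25 to 38 members detected in control and 28 to 41 in Sev libraries.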
